A study of Mus musculus with 6 samples.

Results

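The genes described here are 10 mouse genes that control and store iron: the hepcidin genes *Hamp* and *Hamp2*, *Bmp6*, *Tmprss6*, *Tfr2*, *Tfrc*, *Trf*, *Fth1*, *Ftl1* and *Slc40a1*. They were chosen by name, as hepcidin with its BMP control, transferrin, ferritin and ferroportin, and all 10 were found by Ensembl gene ID among the 56691 genes of the deposited liver table. Liver RNA of 3 KPF and 3 WPF dams was sequenced. KPF dams were h*Chrebp* KO (*Chrebp* flox/flox/Cre+/-), in which an *Alb*-Cre transgene deletes *Chrebp* in hepatocytes, the cells that use the albumin promoter. WPF dams carry the genotype WT in the sample labels, whereas the methods describe them as *Chrebp* flox/flox/Cre-/-, so both groups have the floxed allele and the KPF group alone has Cre. All 6 dams were pregnant and received HFrD, a high-fructose diet, during pregnancy. Ages of the dams were not given in the sources used here, and no group without HFrD was analysed here. *Chrebp*, or *Mlxipl*, encodes a transcription factor that is activated by products of carbohydrate metabolism.

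Hepcidin is a small hormone made by hepatocytes that binds ferroportin, the iron exporter encoded by *Slc40a1*, and causes it to be degraded, so that less iron enters the blood from the gut, macrophages and liver. Its transcription is raised by BMP6 through SMAD proteins when iron is plentiful and by IL-6 through STAT3 in inflammation, and it is lowered by the protease encoded by *Tmprss6*. Mice have a second gene, *Hamp2*, whose peptide is not known to act on iron as hepcidin does. Inside the cell, iron regulatory proteins bind hairpins called iron-responsive elements, which block translation of ferritin and ferroportin mRNA and stabilise the mRNA of transferrin receptor 1 when iron is scarce. In pregnancy hepcidin is normally low, which makes iron available to the fetus.

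The regions upstream of the start sites of *Hamp* and *Hamp2* are shown because the pair differs most between libraries and because reads of near-identical copies can be hard to tell apart. Both are RefSeq sequences of GRCm38.p6 from the minus strand, 250 bases that end just before the start site. *Hamp* is at chr7:30944030-30944279 and *Hamp2* at chr7:30924182-30924431. Capitals mark GGCGCC, the core of a BMP-responsive element, and TTCTTGGAA, a match to the STAT motif TTCNNNGAA.
Hamp: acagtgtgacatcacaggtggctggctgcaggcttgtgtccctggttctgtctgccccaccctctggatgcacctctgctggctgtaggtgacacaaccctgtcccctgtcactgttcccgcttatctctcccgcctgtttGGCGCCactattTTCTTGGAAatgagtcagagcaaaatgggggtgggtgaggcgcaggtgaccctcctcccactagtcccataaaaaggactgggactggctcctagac
Hamp2: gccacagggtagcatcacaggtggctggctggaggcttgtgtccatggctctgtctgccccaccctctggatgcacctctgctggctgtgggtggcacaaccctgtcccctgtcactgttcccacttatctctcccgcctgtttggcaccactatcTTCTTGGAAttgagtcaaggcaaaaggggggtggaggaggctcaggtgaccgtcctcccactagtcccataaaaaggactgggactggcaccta
Aligned to each other, these windows had 227 identical and 20 mismatched positions and 6 gap positions, or 91.9% identity of the aligned bases, and the coding sequences were 93.6% identical. The STAT motif starts at position -97 from the start site in *Hamp* and at -94 in *Hamp2*, and 7.02% of 32851 RefSeq windows of the same length hold it on either strand. GGCGCC starts at -109 in *Hamp* and these letters are not in the window of *Hamp2*. Among the other iron genes with a window, GGCGCC was found in *Tfrc* alone, at -89. Of all windows, 9.59% hold GGCGCC. The E-box CACGTG, which is part of carbohydrate response elements, was found in the window of *Bmp6* (at -127) and in no other of the 7 iron genes that have a window in the RefSeq table, against 6.02% of all windows. *Trf*, *Tmprss6* and *Slc40a1* have no entry in that table. The motifs do not overlap each other in the windows shown, and a match is a description of the letters and not of binding.

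Iron-responsive elements are shown because they are what ferritin, ferroportin and transferrin receptor 1 share. A search of the annotated UTRs in GRCm38 (GENCODE M21) for a bulged C, a paired upper stem and a 6-base loop found 1 element in the 5′ UTR of each of *Fth1*, *Ftl1* and *Slc40a1* and 5 elements in the 3′ UTR of *Tfrc*. Capitals mark the bulged C and the loop. The elements lie at chr19:9982733-9982759 (plus strand, *Fth1*), chr7:45459780-45459806 (minus strand, *Ftl1*), chr1:45925466-45925492 (minus strand, *Slc40a1*) and, for *Tfrc*, chr16:32631161-32631187, chr16:32631220-32631246, chr16:32631599-32631625, chr16:32631664-32631690 and chr16:32631711-32631737 (plus strand).
Fth1: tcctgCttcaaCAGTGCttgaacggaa
Ftl1: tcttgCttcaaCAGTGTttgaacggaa
Slc40a1: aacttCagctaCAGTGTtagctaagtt
Tfrc element 1: tttatCagtgaCAGAGTtcactataaa
Tfrc element 2: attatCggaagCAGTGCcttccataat
Tfrc element 3: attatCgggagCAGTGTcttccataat
Tfrc element 4: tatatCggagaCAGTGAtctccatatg
Tfrc element 5: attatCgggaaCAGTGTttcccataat
Among all genes, the iron genes included, the pattern is rare, and it occurred in a 5′ UTR of 0.242% and in a 3′ UTR of 0.868% of 21877 genes. No element was found by this pattern in the UTRs of the other 6 iron genes.

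Counted reads numbered 10694496 to 14496630 per library, and the KPF libraries were the smaller ones. Values per library are CPM, the count scaled to a common library size by TMM in edgeR, unless FPKM, the deposited value per length and library size, is named. A gene was called when edgeR's quasi-likelihood test gave an unadjusted p under 0.05 with a fold change of 1.5 or more, and 1068 of the 10866 tested genes were called (9.83%). Of all tested genes 5.84% were called higher and 3.98% called lower in KPF, and of called genes alone it is written that they rose or fell. The share that passed an adjusted p under 0.05 was 0%, with 1178 genes at an unadjusted p under 0.05, whereas DESeq2 gave 156 genes and limma 0 genes at that adjusted p. *Mlxipl* was at 179, 700 and 849 CPM in KPF replicates 1, 2 and 3, against 961, 1260 and 879 CPM in WPF replicates 2, 3 and 4 (log2 fold change -0.84, standard error (SE) 0.53, adjusted p = 0.584), where reads of the whole gene check the deletion of an exon only in part. WPF replicate 4 stood apart from the other WPF libraries. Its Spearman correlation across genes was 0.9365 and 0.9364 with WPF replicates 2 and 3, which reached 0.9766 with each other. With KPF replicate 3 it was higher, 0.9519, but with KPF replicates 1 and 2 it was lower, 0.9034 and 0.8947. *Fasn*, fatty acid synthase, chosen here after its values were seen, was at 241 CPM in WPF replicate 4 against 2540 and 2085 CPM in WPF replicates 2 and 3. KPF replicates 1, 2 and 3 had 147, 176 and 161 CPM of *Fasn*, so WPF replicate 4 lay near the KPF level, and whether its label is right was not tested. Results are therefore given with and without WPF replicate 4 where they rest on it. KPF replicate 2 was the library least like the rest. Every other library had its lowest correlation with KPF replicate 2, at 0.8769 to 0.8947.

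Per length, the 10 genes lay between rank 20 and rank 16288 of all genes by their mean FPKM. *Trf* had a mean of 2312 FPKM over the 6 libraries (1522 to 3153), the highest of them, and *Ftl1* had 1931 FPKM (1182 to 2412) and ranked 23. *Hamp2* followed with 695 FPKM (171 to 2220), *Hamp* with 257 FPKM (3.94 to 1024) and *Fth1* with 184 FPKM (146 to 245). The ranges of these neighbours overlapped between libraries, although within each of the 6 libraries *Trf* was above *Ftl1* and *Hamp2* above *Hamp*. *Tfr2* (61.8 FPKM, 49.7 to 95.5) and *Tmprss6* (50.2 FPKM, 35.7 to 68.4) overlapped each other and lay below every library of *Fth1*. *Slc40a1* (7.42 FPKM, 4.57 to 14.5) and *Tfrc* (6.64 FPKM, 4.70 to 8.97) overlapped as well and lay below every library of *Tmprss6*. *Bmp6*, which is made by sinusoidal endothelial cells, was lowest, at 0.11 to 0.26 FPKM from 5 to 14 reads, below the minimum mean of 1 FPKM for testing.

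*Hamp* (ENSMUSG00000050440, chromosome 7, bases 30641793 to 30643457 on the minus strand, coordinates of the deposited table) was the most variable of the iron genes. It was counted at 34.6, 422 and 122 CPM in KPF replicates 1, 2 and 3. In WPF replicates 2 and 3 it was at 1.81 and 1.9 CPM, from 21 and 27 reads, and in WPF replicate 4 at 55.5 CPM, from 948 reads. Both groups overlapped, since WPF replicate 4 lay above KPF replicate 1, while the other two WPF libraries were far below every KPF library. The log2 fold change was 3.28 (SE 1.47, 95% interval -0.14 to 6.71), and *Hamp* did not pass the test (p = 0.0579, adjusted p = 0.466, exact two-sided permutation p = 0.2). Without WPF replicate 4 the log2 fold change was 6.68 and *Hamp* was called by the unadjusted rule (adjusted p = 0.181). Without KPF replicate 2, the highest library, it was 1.98 (adjusted p = 0.640). The spread of *Hamp* within groups, an SD of 2.26 on the log2 scale, was at the 99.4th percentile of all tested genes, whose median SD was 0.34.

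*Hamp2* (ENSMUSG00000056978, chromosome 7, bases 30621797 to 30624106, minus strand) was read abundantly in all 6 livers. It was at 101, 1302 and 323 CPM in the KPF libraries, against 149, 417 and 136 CPM in WPF replicates 2, 3 and 4. These ranges overlapped at both ends, and KPF replicate 2 was highest for both hepcidin genes. Its log2 fold change was 1.30 (SE 0.88, p = 0.179, adjusted p = 0.610, exact permutation p = 0.7), and it turned to -0.15 without KPF replicate 2. Within groups *Hamp2* varied at the 97.9th percentile (SD 1.45 on the log2 scale).

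**Figure D1:**
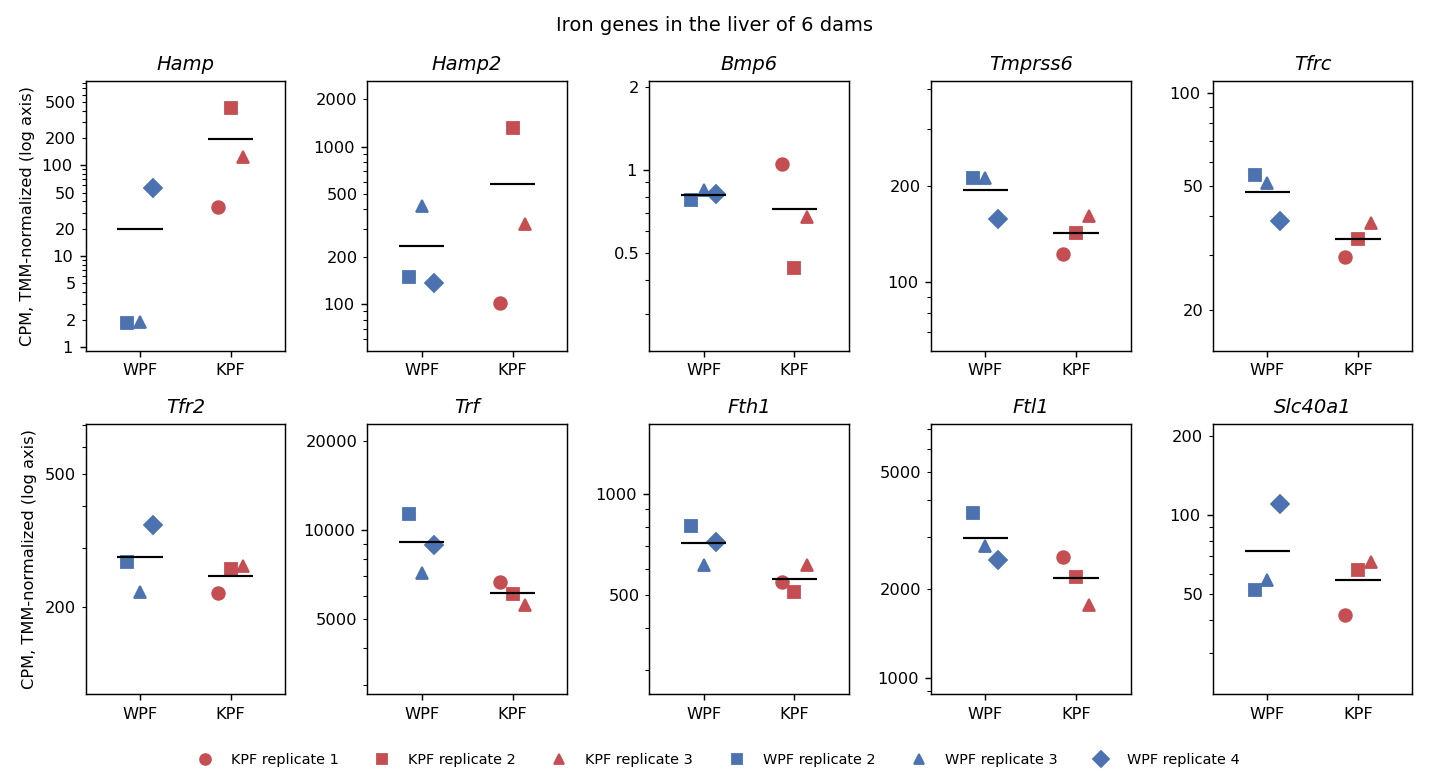
Level of each of the 10 iron genes in CPM (TMM-normalized, log axis, own scale per gene) in each of 3 WPF and 3 KPF livers, with black lines at the group means. *Trf* and *Tfrc* do not overlap between groups, and WPF replicates 2 and 3 lie below 2 CPM for *Hamp* while the other 4 libraries lie between 34.6 and 422 CPM.

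The share of *Hamp2* among the reads of both hepcidin genes does not depend on library scaling. It was 74.6%, 75.5% and 72.6% in KPF replicates 1, 2 and 3, 98.8% and 99.5% in WPF replicates 2 and 3, and 71.0% in WPF replicate 4. The 95% Wilson intervals, which cover counting error only, were 72.3 to 76.8%, 74.9 to 76.1% and 71.3 to 73.9% in KPF and 98.2 to 99.2%, 99.3 to 99.7% and 69.4 to 72.5% in WPF. WPF replicate 4 thus lay within a few percentage points of the KPF libraries, and WPF replicates 2 and 3 lay far above them. Group means were 74.2% ± 1.49 (SD, n = 3) in KPF and 89.8% ± 16.3 (SD, n = 3) in WPF, a difference of -15.6 percentage points (exact two-sided permutation test, p = 0.4). Without WPF replicate 4 the difference was -24.9 percentage points (exact permutation p = 0.2, the smallest that 3 against 2 libraries can give). In sum, both genes made 136, 1724 and 445 CPM in KPF and 151, 419 and 192 CPM in WPF (exact permutation p = 0.5), and WPF replicates 2 and 3 were inside the KPF range. In those 2 livers nearly the whole total came from *Hamp2*. The coding sequences are close enough that reads may have been assigned to the wrong copy or dropped, and how such reads were counted is not given in the sources used here.

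**Figure D2:**
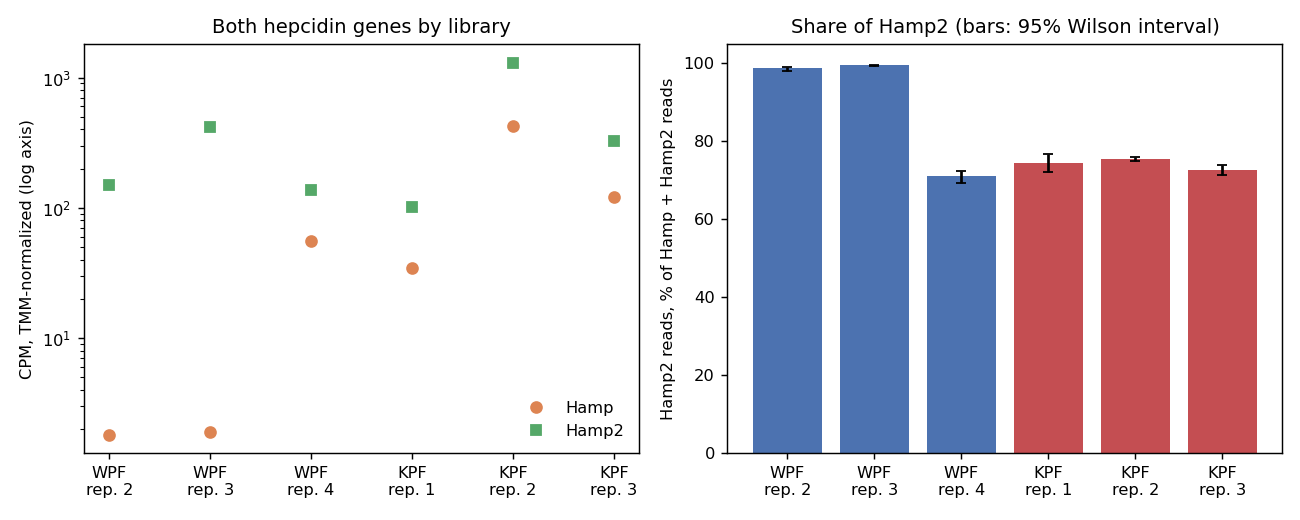
Left, *Hamp* and *Hamp2* in CPM (log axis) in each library. Right, *Hamp2* reads as a percentage of *Hamp* plus *Hamp2* reads in each library with 95% Wilson intervals. WPF replicates 2 and 3 stand at 98.8% and 99.5%, and the other 4 libraries between 71.0% and 75.5%.

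The predicted gene Gm44662 spans *Hamp* and *Hamp2* on the opposite strand, and in GENCODE M21 its exons share 89 bases with those of *Hamp2* and 0 with those of *Hamp*. Whether the counting used strand is not stated. It had 8, 72 and 29 reads in KPF and 0, 5 and 2 reads in WPF replicates 2, 3 and 4, so it was highest in KPF replicate 2, as were both hepcidin genes. Its log2 fold change of 4.28 (SE 1.04, adjusted p = 0.429) passed the unadjusted rule. Nearly all of its reads came from KPF libraries, so the FPKM minimum admitted it mainly through the group where it was high. The hepcidin genes are 17686 bases apart in the deposited coordinates, and 6 tested genes lie within 100 kb of them, a window chosen after the values were seen. *Lsr*, a lipoprotein receptor gene, was lower in KPF (log2 fold change -0.67, SE 0.29, adjusted p = 0.460) and *Fxyd5*, a regulator of the sodium pump, was higher (0.73, SE 0.27, adjusted p = 0.430). The groups did not overlap for 4 of the 6 neighbours, of which *Lsr* and *Usf2* were lower in KPF and *Fxyd5* and Gm44662 higher, where 8.15% of all tested genes lay lower and 7.55% higher without overlap. *Fxyd7*, Gm4673 and *Usf2* did not pass the test, with log2 fold changes of 0.37, 0.19 and -0.20. Adjusted p values of these neighbours were 0.429 or above.

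*Bmp6* (chr13:38529083-38684278 in the deposited coordinates, plus strand), the ligand through which liver iron raises hepcidin, had too few reads to compare the groups. Its levels were 1.05, 0.44 and 0.67 CPM in KPF and 0.78, 0.84 and 0.82 CPM in WPF, and the KPF range enclosed that of WPF. The log2 fold change of -0.18 has a 95% interval from -1.38 to 1.02, so that a change of 2-fold either way would not have been detectable at this depth. *Bmp6* also overlaps *Txndc5* by 224 bases on the opposite strand, a gene with 1215 to 2974 reads per library. Endothelial markers, which bear on the cells that make BMP6, summed to 199 to 308 CPM in KPF and 181 to 225 CPM in WPF (10 genes, exact permutation p = 0.4), and their part in the *Bmp6* level was not tested. In bulk tissue, fewer cells of a type and less RNA per cell cannot be told apart.

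*Tmprss6* (chr15:78323867-78352834, minus strand), the membrane protease that cleaves the BMP co-receptor hemojuvelin and so lowers hepcidin, was read at 122, 142 and 161 CPM in KPF. In WPF replicates 2, 3 and 4 it was at 212, 212 and 158 CPM. KPF replicate 3 and WPF replicate 4 overlapped, and the other libraries of the groups did not. On the log2 scale the difference was -0.45 (SE 0.25, p = 0.106, adjusted p = 0.537, exact permutation p = 0.2), and without WPF replicate 4 it was -0.59 (adjusted p = 0.472). *Tfr2* (chr5:137568102-137585743, plus strand), the liver transferrin receptor that senses iron-loaded transferrin, was at 220, 259 and 265 CPM in KPF, against 272, 221 and 352 CPM in WPF. Its groups overlapped over nearly the whole KPF range. The log2 fold change was -0.18 (SE 0.26, 95% interval -0.80 to 0.43, adjusted p = 0.812), and WPF replicate 4 was the highest library, without which the difference was -0.00096.

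*Tfrc* (chr16:32427738-32451612, plus strand) encodes transferrin receptor 1, through which cells take up iron bound to transferrin. It was at 29.6, 33.8 and 38.1 CPM in the KPF libraries. The WPF libraries had 54.4, 51.1 and 38.6 CPM, so the groups did not overlap, though KPF replicate 3 and WPF replicate 4 were close together. The log2 fold change was -0.51 (SE 0.22, 95% interval -1.01 to 0.0014), and *Tfrc* did not pass the call rule (p = 0.0505, adjusted p = 0.460, exact permutation p = 0.1). With 3 libraries against 3, an exact two-sided test cannot go below 0.1. Leaving out WPF replicate 4 gave -0.65 (adjusted p = 0.381) and a call by the unadjusted rule. *Tfrc* mRNA carries the 5 elements described above in its 3′ UTR.

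*Trf* (chr9:103081200-103107643, minus strand), transferrin, is the iron carrier of the blood and among the most abundant liver mRNAs. KPF libraries had 6698, 6070 and 5614 CPM and WPF libraries 11365, 7195 and 8886 CPM. The groups did not overlap, and the lowest WPF library, replicate 3, was close to the highest KPF library, replicate 1. The difference was -0.58 on the log2 scale (SE 0.30, 95% interval -1.28 to 0.12, p = 0.0918, adjusted p = 0.517, exact permutation p = 0.1), so *Trf* did not pass the test. Without WPF replicate 2, the highest library, it was -0.39. Of the 9 tested iron genes, *Tfrc* and *Trf* were the 2 whose KPF libraries were all below the WPF libraries, against 8.15% of all tested genes, and none had all KPF libraries above, against 7.55% of all tested genes.

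Ferritin, the shell that stores iron, is built from heavy chains, which oxidise iron, and light chains, which help to mineralise it. The genes are *Fth1* (chr19:9957962-9962462, plus strand) and *Ftl1* (chr7:45107368-45109308, minus strand). *Ftl1* was at 2571, 2193 and 1761 CPM in KPF, against 3627, 2803 and 2516 CPM in WPF. KPF replicate 1 and WPF replicate 4 overlapped narrowly. With a log2 fold change of -0.46 (SE 0.29, p = 0.160, adjusted p = 0.590, exact permutation p = 0.2), *Ftl1* did not pass the test. *Fth1* was at 549, 510 and 616 CPM in KPF, against 805, 615 and 721 CPM in WPF, with KPF replicate 3 and WPF replicate 3 almost equal. Its log2 fold change was -0.35 (SE 0.25, p = 0.191, adjusted p = 0.620, exact permutation p = 0.2), and within groups it was among the steadier genes, at the 10.2nd percentile of SD. Nor did *Fth1* pass the test.

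Per length, *Ftl1* was read 12.1, 11.1 and 7.40 times as much as *Fth1* in the KPF libraries and 11.7, 11.8 and 9.03 times as much in WPF. KPF replicate 3 and WPF replicate 4 had the lowest ratios. Means were 10.2 ± 2.49 and 10.8 ± 1.56 (SD, n = 3 each), and the difference of -0.61 was smaller than the spread between libraries (exact permutation p = 0.7). It was 0.79 without KPF replicate 3 and -1.52 without WPF replicate 4, and ranged from -1.56 to 0.79 over the libraries left out. The ratios per length depend on the exonic lengths used, 3469 bases for *Fth1* and 1340 bases for *Ftl1*. In read counts *Ftl1* was 4.68, 4.30 and 2.86 times *Fth1* in KPF and 4.51, 4.56 and 3.49 times in WPF. Both genes have processed pseudogenes that can share reads with them. *Ftl1-ps1* had 33 to 117 reads per library, or 0.126 to 0.272% of the *Ftl1* reads. The predicted gene Gm10252, which overlaps *Ftl1* by 416 bases on the opposite strand, had 9 to 14 reads.

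*Slc40a1* (chr1:45947228-45965683, minus strand), ferroportin, is the only known cellular iron exporter and is high in macrophages as well as hepatocytes. It was at 41.9, 62.0 and 66.6 CPM in KPF, against 51.9, 56.5 and 111 CPM in WPF replicates 2, 3 and 4. WPF replicate 4 was far above the other 5 libraries, which overlapped. Its log2 fold change was -0.36 (SE 0.35, p = 0.333, exact permutation p = 0.7) with all libraries and 0.059 without WPF replicate 4 (adjusted p = 0.953), so its direction rested on that library. Kupffer cell markers were also highest in WPF replicate 4, at a sum of 373 CPM against 196 and 269 CPM in WPF replicates 2 and 3 and 204 to 269 CPM in KPF, and their part in the ferroportin level was not tested.

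Considered together, 0 of the 9 tested iron genes were called, against 9.83% of all tested genes, and 0 passed an adjusted p under 0.05. DESeq2 called 1 of them, *Hamp*, where it called 1139 of all 10866 tested genes. Leaving out a library gave 2 calls without KPF replicate 1, 1 without KPF replicate 3 and 2 without WPF replicate 4. Over all tested genes those fits called 764 of 10847, 1634 of 10932 and 1153 of 10741. The log2 fold changes were positive for the 2 hepcidin genes and negative for the other 7, with a median of -0.36 beside a median of 0.016 over all tested genes. On the FPKM scale, which does not use the TMM factors, 5 of the 9 (*Trf*, *Tfrc*, *Tmprss6*, *Fth1* and *Ftl1*) lay lower in every KPF library than in every WPF library. That count was added after the data were seen, and on the same scale 12.2% of all tested genes lay lower without overlap and 3.29% higher. FPKM values of *Tfrc* were 4.70, 5.43 and 5.55 in KPF and 7.84, 8.97 and 7.35 in WPF. Those of *Fth1* were 155, 146 and 160 in KPF and 207, 192 and 245 in WPF. Scaling by library totals in place of TMM moved the median over all tested genes from 0.016 to -0.12, so values tend lower in KPF among all genes on such a scale.

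**Figure D3:**
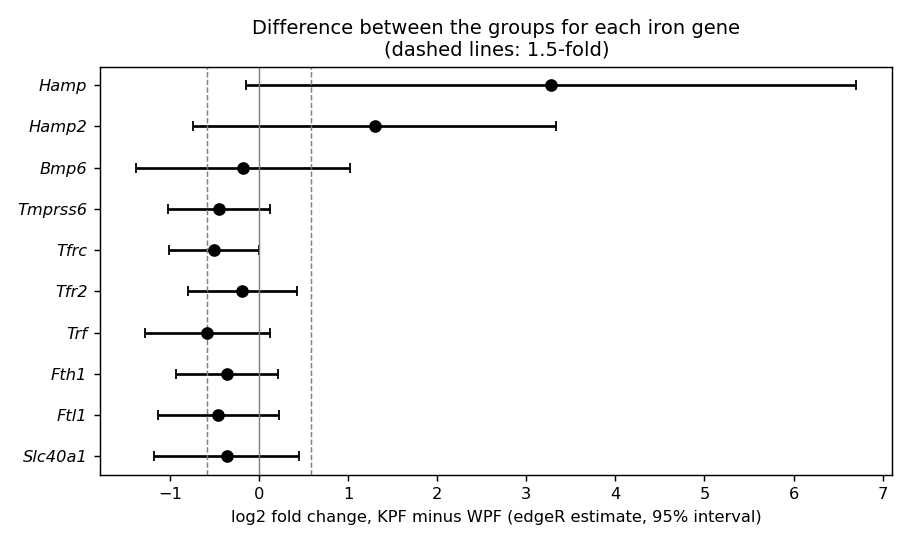
Log2 fold change of KPF against WPF for each of the 10 iron genes (edgeR estimate) with its 95% interval, with dashed lines at 1.5-fold. All 10 intervals include 0, and those of *Hamp* (-0.14 to 6.71) and *Hamp2* (-0.74 to 3.34) are the widest.

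The wider iron pathways were described by 7 lists of 84 genes in all, of which 69 were tested. Of these, 4 were called higher and 1 called lower in KPF, where 5.84% of all tested genes were called higher and 3.98% lower, and 0 passed the adjusted threshold. Among those called higher, *Saa1* and *Saa2* reached the minimum mean of 1 FPKM only through KPF. Without KPF replicate 1 or WPF replicate 3 the calls numbered 2, and without KPF replicate 2 or WPF replicate 4 they numbered 8. Over all tested genes those fits called 764 of 10847, 576 of 10893, 1020 of 10745 and 1153 of 10741. The median log2 fold change of the 69 genes was -0.068. In the BMP-SMAD pathway, 0 of 10 tested genes were called (median -0.23). *Smad1*, which carries the BMP signal into the nucleus, had a log2 fold change of -0.49 (SE 0.23, adjusted p = 0.491), *Hfe*, the hemochromatosis protein, -0.43 (SE 0.22, adjusted p = 0.512), and *Bmp4* 0.64 (SE 0.38, adjusted p = 0.572). KPF libraries of *Smad1*, *Hfe* and the receptor *Acvr2a* were all below those of WPF, or 3 of 10 genes against 8.15% of all tested genes.

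Genes that BMP-SMAD signaling activates beside hepcidin gave 0 calls of 5 tested, against 9.83% of all tested genes, though all 5 values were positive (median 0.35). *Atoh8*, a transcription factor that acts on the *Hamp* promoter, was at 43.0, 18.3 and 30.1 CPM in KPF and 17.1, 23.6 and 14.9 CPM in WPF (log2 fold change 0.71, SE 0.34, adjusted p = 0.486). *Id3*, an inhibitor of differentiation factors, was at 40.4, 29.5 and 117 CPM in KPF and 11.6, 19.5 and 54.9 CPM in WPF (1.12, SE 0.69, adjusted p = 0.580). In WPF both *Id3* and *Hamp* were highest in replicate 4, whereas in KPF *Id3* was highest in replicate 3 and *Hamp* in replicate 2. *Smad9*, below the FPKM minimum, had -0.63 (SE 0.54, exact permutation p = 0.5).

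Of 11 tested genes of the IL-6 and STAT3 arm, 3 rose and 0 fell by the unadjusted rule (median 0.098), where 5.84% of all tested genes were called higher and 3.98% lower. These 3 are acute phase genes that inflammation induces in the liver. *Saa1*, serum amyloid A, was at 17, 7.96 and 4.23 CPM in KPF and 1.38, 2.39 and 2.17 CPM in WPF (log2 fold change 2.28, SE 0.54, p = 0.00310, adjusted p = 0.415, exact permutation p = 0.1). *Saa2* was at 12.6, 3.27 and 1.15 CPM in KPF and 0.95, 0.98 and 0.76 CPM in WPF (2.65, SE 0.82, p = 0.0130, adjusted p = 0.429, exact permutation p = 0.1), and *Lcn2*, which binds bacterial iron carriers, at 49.5, 20.1 and 10.6 CPM against 8.47, 9.77 and 11.9 CPM (1.41, SE 0.52, adjusted p = 0.430). All 3 were highest in KPF replicate 1, the KPF library with the least *Hamp*. Without that library *Saa1* stayed called at 1.62, whereas *Saa2* (1.30) and *Lcn2* (0.61) did not. *Lcn2* was also not called without WPF replicate 2 or 3 (1.30 and 1.38). *Saa1* and *Saa2* reached the minimum mean of 1 FPKM only through KPF, so the filter admitted them through the group where they were high. Their mean FPKM was 3.81 and 2.2 in KPF and 0.86 and 0.373 in WPF. *Saa1* and *Saa2* are near-identical copies, so the split of their reads is uncertain. The receptor genes *Il6ra* and *Il6st* and *Stat3* itself did not pass the test, with log2 fold changes of 0.098, 0.11 and -0.17. Nor did *Socs3*, listed as a reporter of STAT3, with -0.063 (SE 0.32, adjusted p = 0.954).

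Of all tested genes 9.83% were called and 3.98% called lower, and 1 of 15 tested genes of iron and heme transport fell, *Slc25a37*. It encodes mitoferrin 1, which brings iron into mitochondria, and was at 29.8, 60.9 and 33.9 CPM in KPF, against 64.4, 80.7 and 67.3 CPM in WPF (log2 fold change -0.77, SE 0.31, p = 0.0383, adjusted p = 0.448, exact permutation p = 0.1). The call held without KPF replicate 2 (-1.16). It was lost without KPF replicate 1 (-0.58) or 3 (-0.64) and without WPF replicate 2 (-0.84), 3 (-0.67) or 4 (-0.81). The list's median was -0.063. Below the FPKM minimum, the iron reductase *Steap2* had -0.98 (SE 0.37, exact permutation p = 0.2, 29 to 98 reads) and the ferritin receptor *Scara5* 2.17 (SE 0.94, exact permutation p = 0.1, 0 to 11 reads). In the iron regulatory protein system, 0 of 6 genes were called, 5 of 6 values were negative and in 4 genes the KPF libraries were all below the WPF libraries, against 8.15% of all tested genes. *Fbxl5*, which removes iron regulatory protein 2 when iron is sufficient, was at 11.9, 15.6 and 14.1 CPM in KPF and 19.0, 20.9 and 18.8 CPM in WPF. Its log2 fold change of -0.50 (SE 0.19, p = 0.0353, adjusted p = 0.443, exact permutation p = 0.1) was under 1.5-fold, and *Epas1* (-0.44, adjusted p = 0.477), *Aco1*, iron regulatory protein 1 (-0.34, adjusted p = 0.585), and *Skp1* were the other 3.

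In heme metabolism, 1 of 12 genes was called, against 9.83% of all tested genes. *Alas1*, the rate-limiting enzyme of heme synthesis in the liver, was at 173, 710 and 64.0 CPM in KPF and 62.8, 56.0 and 122 CPM in WPF (log2 fold change 1.98, SE 0.81, p = 0.0428, adjusted p = 0.453, exact permutation p = 0.2). KPF replicate 2 was highest, as it was for *Hamp*, and the groups overlapped. Without that library the value was 0.56, and the call was lost then and without WPF replicate 2 or 3 (1.83 and 1.77). The later enzymes *Cpox* and *Ppox* had log2 fold changes of 0.46 (adjusted p = 0.493) and -0.69 (adjusted p = 0.512). Of 10 tested genes of iron-sulfur cluster assembly 0 were called, and 9 of the 10 values were negative (median -0.25). *Glrx5* had -0.54 (SE 0.25, adjusted p = 0.476), *Lyrm4* -0.43 (SE 0.26, adjusted p = 0.573) and *Hscb* 0.55 (SE 0.36, adjusted p = 0.602).

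**Figure D4:**
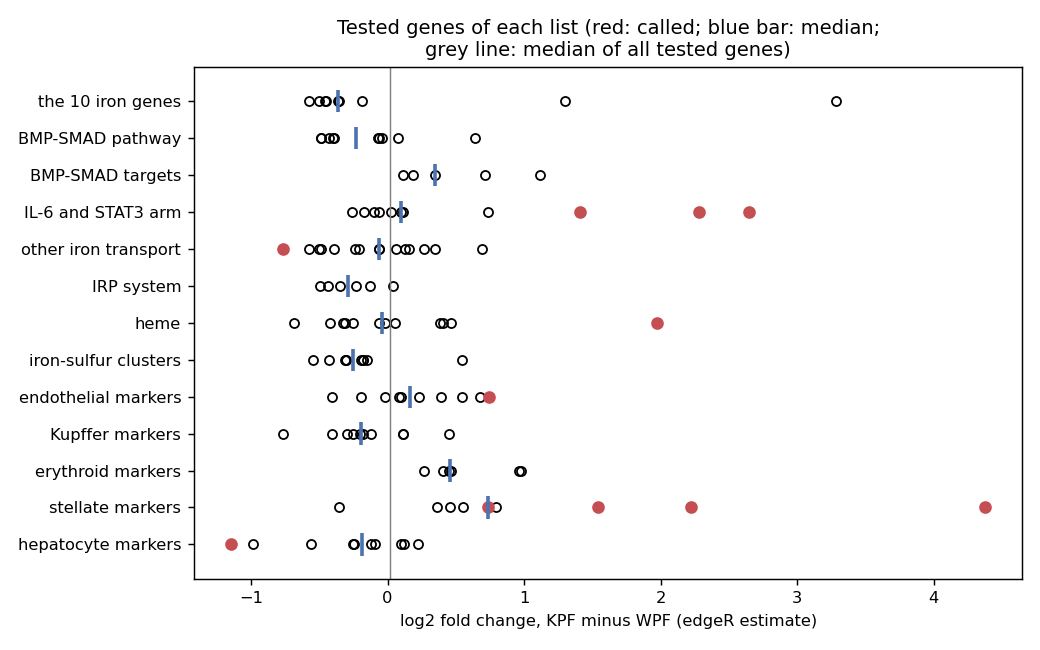
Log2 fold change of KPF against WPF (edgeR estimate) for the tested genes of the 10 iron genes, the 7 wider iron lists and the 5 cell type marker lists. Filled red points are called genes, open points are not, blue bars are list medians, and the grey line is the median of all tested genes (0.016). None of the tested iron genes is red, and the red points of the wider lists are *Saa1*, *Saa2*, *Lcn2*, *Alas1* and *Slc25a37*.

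Markers of hepatocytes and of other liver cells were read beside these genes, and 5 of 45 tested markers were called higher and 1 lower, where the shares over all tested genes were 5.84% and 3.98%. Hepatocyte markers summed to 83562 to 110603 CPM in KPF and 107818 to 178886 CPM in WPF (10 genes, exact permutation p = 0.3), so hepatocyte mRNA was abundant in every library. Most of each sum was *Alb*, at 64958 to 90176 CPM in KPF and 89427 to 148689 CPM in WPF. *Apoh*, apolipoprotein H, was lower in KPF (log2 fold change -1.14, SE 0.32, p = 0.00752, adjusted p = 0.429, exact permutation p = 0.1), and *Ttr* (-0.98, adjusted p = 0.464) and *Alb* (-0.56, SE 0.37, adjusted p = 0.603) did not pass. Of the 10 values 7 were negative and 3 positive (median -0.18). The positive ones were *Hnf4a* (0.22), *Cyp2e1* (0.12) and *Apoa1* (0.10), and none of these was called. In WPF replicate 2, *Alb* and *Trf*, both secreted hepatocyte products, were at their highest. Stellate cell and fibroblast markers summed to 331 to 910 CPM in KPF and 289 to 325 CPM in WPF without overlap (exact permutation p = 0.1). KPF replicate 3 and WPF replicate 2 were close together. Much of each sum came from single genes, *Ecm1* at 150 to 320 CPM and, in KPF replicate 2, *Des*. Of 9 tested 4 rose, the collagens *Col3a1* (1.55, adjusted p = 0.415) and *Col1a1* (2.22, adjusted p = 0.415), *Des* (4.37, adjusted p = 0.429) and *Reln* (0.73, adjusted p = 0.429). *Des*, desmin, was at 486 CPM in KPF replicate 2, where both hepcidin genes were highest, against 7.32 to 53.8 CPM in the other 5 libraries, and its log2 fold change without that library was 1.85. *Reln* was not called without KPF replicate 1 (0.45), WPF replicate 2 (0.65) or WPF replicate 4 (0.70). *Col1a1* and *Reln* reached the minimum mean of 1 FPKM only through KPF. Their mean FPKM was 3.23 and 1.49 in KPF and 0.737 and 0.983 in WPF.

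Of 10 endothelial markers 1 rose, where 5.84% of all tested genes were called higher and 3.98% lower. It was *Pecam1* (0.75, SE 0.22, adjusted p = 0.429), while *Stab2* had -0.41 (adjusted p = 0.482) and *Fcgr2b* 0.39 (adjusted p = 0.511). Of 10 Kupffer cell markers 0 were called. *Cd5l* had -0.76 (SE 0.35, adjusted p = 0.473), *C1qa* -0.41 (adjusted p = 0.711) and *Marco* 0.45 (adjusted p = 0.718). Red cell markers summed to 112 to 520 CPM in KPF and 49.9 to 333 CPM in WPF (exact permutation p = 0.5), and 0 of 6 tested were called. *Hba-a1* had 0.96 (SE 0.75, adjusted p = 0.664), and below the FPKM minimum *Slc4a1* had 2.34 (SE 0.98, exact permutation p = 0.2, 1 to 64 reads) and *Epb42* had at most 3 reads in a library and 0 in each KPF library. No marker list other than the stellate list had sums without overlap. The part of these cells in the levels of the iron genes was not tested.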

How the data were processed

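Poly(A) RNA of the liver of 6 dams was sequenced, and the authors deposited a table of raw read counts per Ensembl gene with FPKM values beside them. The FPKM equals the deposited count divided by exonic length and by the counted total (largest difference 0.005). The submitters' processing notes list cutadapt 1.9.1, HISAT2 2.2.1, HTSeq 0.6.1, DESeq2 and GRCm39. Whether counting used strand is not given in the sources used here. How reads that match several genes were handled is not given either, which bears on near-identical copies.

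Groups came from the sample labels. The study describes the samples of each group as biological replicates. Chi-square per gene was 48.1 or more between libraries of a group, so none was counted as a duplicate. Counts were scaled by TMM (factors 0.891 to 1.18) and tested with edgeR 4.0.16 (R 4.3.3) over 10866 genes, those whose mean FPKM was 1 or more, with Benjamini-Hochberg adjustment. Listed genes below that minimum were fitted along and have no adjusted p. Calls used an unadjusted p under 0.05, the threshold stated for the study's volcano plot, which rested on another test, and a minimum of 1.5-fold set here. Single values were compared by exact two-sided permutation tests. Alternatives used limma 3.58.1, DESeq2 1.42.0, other filters and scalings. The fit was tested on simulated counts. All 10 genes, the called genes and up to 3 genes of smallest p per list, *Mlxipl*, and pseudogenes with reads were named, as were some further list members. The genes and lists were chosen with earlier results of these data known. Of 144 listed genes, 143 were matched by symbol or synonym.

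Replicate numbers 2 and 3 occur in both groups but stand for different dams. Sequences came from RefSeq tables (GRCm38.p6) and GENCODE M21 (GRCm38), and deposited coordinates, which differ from those, were not combined with them.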

Additional observations from a re-analysis of the deposited data

How the results depend on the processing

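Counts of calls depended on the settings. As reported, 0 of the 9 tested iron genes were called. Library totals in place of TMM gave 2 calls (1100 of all 10866 tested genes), and DESeq2 gave 1 (1139 of 10866). No filter gave 2 (2486 of 26984) and edgeR's filterByExpr 1 (1344 of 13884), and there *Bmp6* was tested as well. With limma on log2(FPKM + 1) and log2(FPKM + 0.1) the calls numbered 2 and 3 (773 and 973 of 10866). They numbered 0 to 2 when single libraries were left out, where 576 to 1634 of all tested genes were called. The number lying lower in KPF without overlap went from 2 to 5 on the FPKM scale. Of the wider iron genes (5 called), 11 were called with no filter, 2 with a minimum mean of 5 FPKM, 3 with limma on log2(FPKM + 1), and 2 to 8 without single libraries. Of the markers (6 called), 10 were called with no filter and 2 with the minimum of 5 FPKM. More of the listed genes were tested with no filter, and fewer with the minimum of 5 FPKM. *Hamp* kept a positive value in all 15 alternatives (1.98 to 6.92) and was called in 8 of them, *Tfrc* stayed negative (-0.65 to -0.41) with 4 calls, and *Trf* stayed negative (-0.73 to -0.39) with 3 calls. Adjusted p values of *Hamp* ran from 0.0769 to 0.821.

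Directions turned in these cases. *Hamp2* went to -0.15 and *Bmp6* to 0.075 without KPF replicate 2, and *Slc40a1* to 0.059 without WPF replicate 4, with ranges over the libraries left out of -0.15 to 2.01, -0.54 to 0.075 and -0.56 to 0.059. The difference in the ratio of *Ftl1* to *Fth1* went to 0.79 without KPF replicate 3, with a range of -1.56 to 0.79. The difference in the share of *Hamp2* ranged from -24.9 to -10.7 percentage points. With the replicate number as a block, 1 iron gene was called, *Hamp* (6.92, adjusted p = 0.0769), where 1234 of all 10866 tested genes were called. The values of *Tfr2* and *Slc40a1* turned to 0.095 and 0.25 in that fit. KPF replicate 1 and WPF replicate 4 have no partner of the same number. The block estimate therefore rested on replicates 2 and 3 of both groups. Dams that share a number showed correlations of deviations of 0.045 and -0.017. These values are too few to exclude that dams of the same number were handled together. The cause of these shifts was not tested, and 5 to 14 reads limit *Bmp6*.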
